A study of Arabidopsis thaliana with 6 samples.

Results

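Branched-chain amino acid catabolism genes encode the mitochondrial enzymes that break down leucine, isoleucine and valine. The 10 genes described here were taken by locus from the deposited table, and all 10 were measured, with 14 transcript models among the 37118 models of 32627 loci on the array. They are BCAT1 (AT1G10060), BCAT2 (AT1G10070), AT1G21400, AT5G09300, DIN4 (AT3G13450), BCE2 (AT3G06850, also named DIN3), IVD (AT3G45300), MCCA (AT1G03090), MCCB (AT4G34030) and ETFQO (AT2G43400). Expression was measured on one-colour arrays in roots of Arabidopsis thaliana seedlings after 12 days on diluted Murashige and Skoog medium. In the dark group (3 arrays) the roots were kept in darkness, and in the light group (3 arrays), which the labels call the control, the roots received white light (75 µmol per m2 and second). Shoots of both groups were lit at that same intensity, so the dark group was darkened at the root only. The 3 arrays of each group are biological replicates from separately grown plates, and the labels name neither a strain nor a genotype. The comparison asks which of these transcripts differ when the root itself is kept dark.

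In this pathway, branched-chain aminotransferases (BCAT) first convert each amino acid to its 2-oxo acid. The branched-chain 2-oxo acid dehydrogenase complex, abbreviated BCKDH, with its E1 alpha, E1 beta and E2 subunits, then forms a branched acyl-CoA. On the leucine branch, isovaleryl-CoA dehydrogenase (IVD) and 3-methylcrotonyl-CoA carboxylase act next, and the electrons that IVD removes reach the respiratory chain through the electron transfer flavoprotein and its ubiquinone oxidoreductase, ETFQO. In leaves the pathway is known as an alternative source of respiratory electrons in prolonged darkness and sugar shortage, and several of its genes carry the name DIN, for dark inducible.

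Dark-grown roots had higher levels of BCAT2 and IVD than light-grown roots, 2.81-fold and 2.73-fold, and no other gene among the 10 passed the test. Limma's test, adjusted over all models at a threshold of 0.05, thus called 2 of 10 loci higher in dark-grown roots, where 2.46% of all loci were called higher. It called 0 of 10 lower, where 3.27% of all loci were called lower. At an unadjusted p under 0.05, 4 of the 10 were higher and 1 lower, against 3945 and 2964 of all 32627 loci. The median difference over the 10 genes, dark minus light, was 0.11 on the log2 scale, against 0.01 over all loci, and 7 of the 10 differences were above 0, against 52.5% over all loci. All dark values lay above all light values in 4 of the 10 (BCAT2, IVD, MCCA and BCE2), where 16.2% of all loci showed this, and all dark values lay below all light values in 1 (AT1G21400), where 12.0% of all loci did. Each locus is represented by its transcript model with the highest mean, and in bulk roots fewer cells with a transcript and less of it per cell cannot be told apart.

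**Figure D1:**
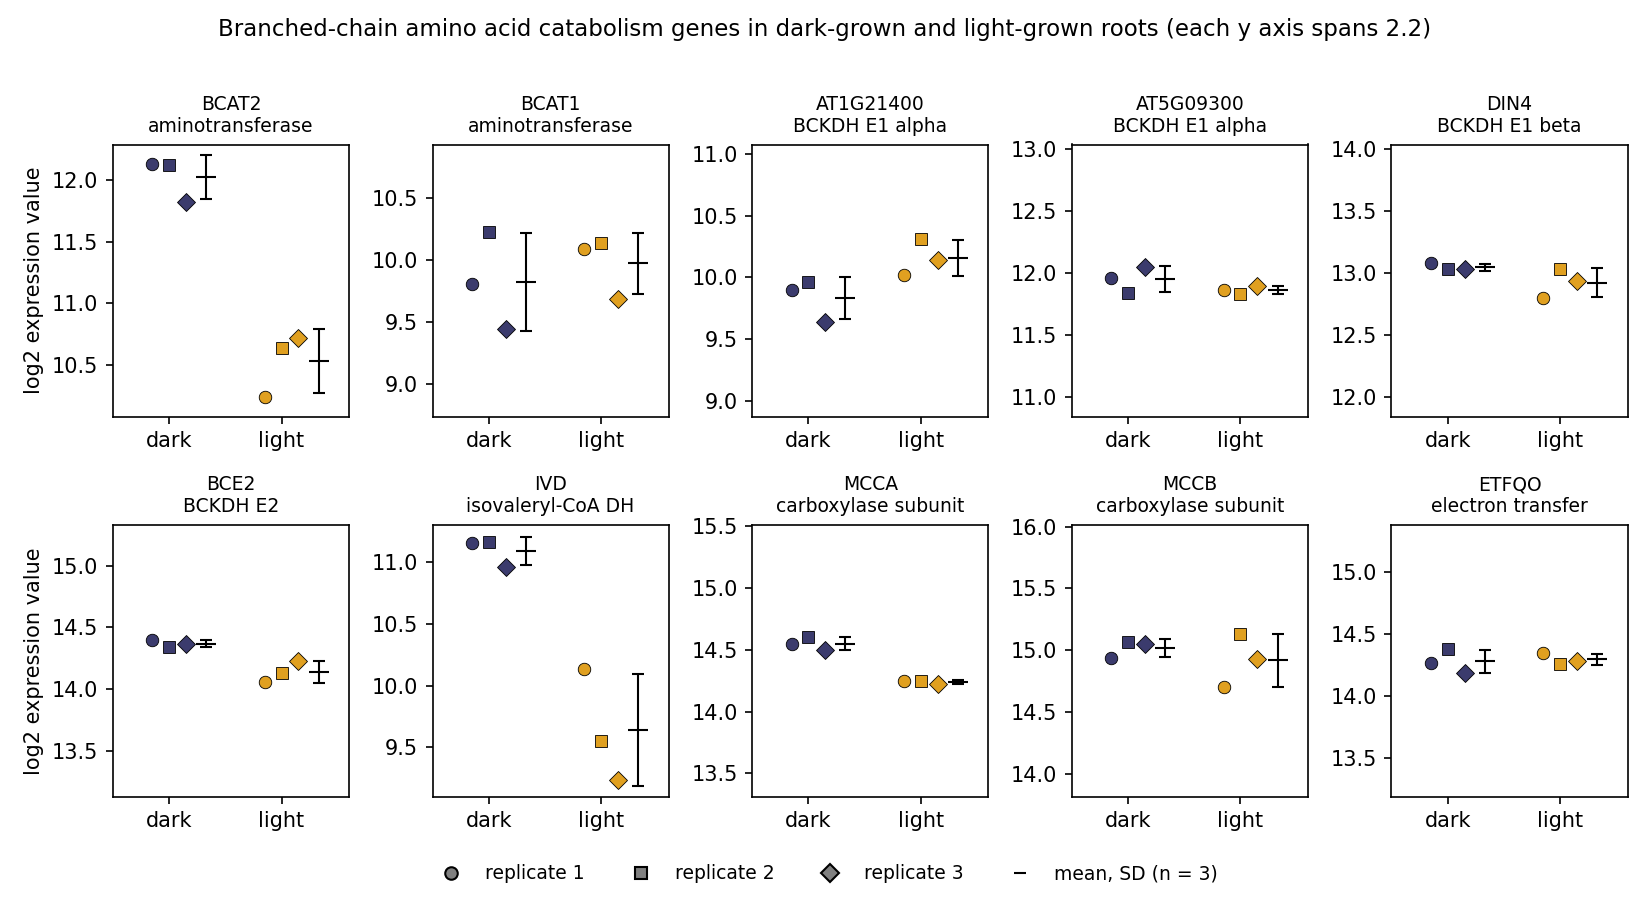
Log2 expression values of the 10 genes on each array, dark-grown roots left and light-grown roots right in every panel; symbols are the 3 replicates, and the bar at the right of each group is the mean with its SD. BCAT2 and IVD show the widest gaps between dark and light arrays, 1.10 and 0.83, while BCAT1, AT5G09300, DIN4, MCCB and ETFQO have groups that overlap or touch.

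BCAT2, a mitochondrial aminotransferase that opens the pathway, had log2 values of 12.13, 12.12 and 11.82 in the 3 dark-grown root samples, against 10.24, 10.64 and 10.72 in the 3 light-grown ones. Every dark array thus lay above every light array, and the lowest dark value exceeded the highest light value by 1.10. The means were 12.02 ± 0.18 in dark-grown and 10.53 ± 0.26 in light-grown roots (SD, n = 3 each), a difference of 1.49 with a standard error (SE) of 0.16 and a limma adjusted p of 0.00832. The 95% interval of the fold change ran from 2.13 to 3.71. By size of the rise in dark-grown roots, BCAT2 ranked 89 of 32627 loci. The call held in each of the 6 fits that left out 1 array, with differences between 1.34 and 1.59 and adjusted p between 0.0199 and 0.0444.

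A dimmer transcript model of BCAT2, model 3, moved the same way. It was at 8.72, 8.77 and 8.62 in dark-grown roots and at 7.53, 8.15 and 7.64 in light-grown roots. The difference was 0.93 (SE 0.17, limma adjusted p = 0.0414), and it passed in 1 of the 6 fits that left out an array. The deposited table does not say which exons either model's probes cover, so the models are not read as separate isoforms.

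BCAT1, the neighbouring aminotransferase gene, which also acts in mitochondria, did not pass. Its brightest model had 9.81, 10.23 and 9.44 in dark-grown roots and 10.09, 10.14 and 9.69 in light-grown roots, and the groups overlapped. The difference was -0.15 (SE 0.23, 95% interval -0.72 to 0.43, limma adjusted p = 0.796), and the other 2 models differed by 0.03 and -0.19, neither past the test. The log2 value of BCAT2 minus that of BCAT1 on the same array was 2.32, 1.89 and 2.38 in dark-grown roots and 0.15, 0.50 and 1.03 in light-grown roots. Its size mixes the probes of both genes, so only its change between the groups can be read, and the pair was chosen after the values were seen. The values did not overlap between the groups, and their mean was 1.64 higher in the dark. An exact permutation test over the 3 against 3 arrays, two-sided, gave p = 0.1, the smallest the design allows, and 0.133 after Benjamini-Hochberg adjustment over the 4 pairs of genes compared this way.

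The genes on either side of the 10, by position in the RefSeq table, showed no call. Of 16 measured neighbours outside the set, 0 passed limma's threshold, where 2.46% of all loci were called higher and 3.27% lower. Their differences ranged from -0.31 to 0.22. In that table AT1G10090 overlaps BCAT2. It was at 13.99 in dark-grown and 14.05 in light-grown roots, a difference of -0.06 (SE 0.09). A neighbour also overlaps BCE2, DIN4, AT5G09300 and ETFQO, and whether their probes share sequence was not tested.

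The subunits of the 2-oxo acid dehydrogenase complex did not pass in any of the 4 genes measured. E1 alpha, the decarboxylating subunit, is encoded by AT1G21400 and AT5G09300. AT1G21400 had 9.90, 9.96 and 9.64 in dark-grown roots and 10.02, 10.31 and 10.14 in light-grown roots, so every dark value was the lower, by a gap of 0.06 at the closest pair. The difference was -0.32 (SE 0.12, limma adjusted p = 0.217, 95% interval -0.63 to -0.02). AT5G09300 had 11.96, 11.84 and 12.05 in dark-grown roots and 11.86, 11.83 and 11.90 in light-grown roots, with overlapping groups and a difference of 0.09 (SE 0.08, limma adjusted p = 0.638). Its dimmer model, at a mean of 6.96 in the dark and 6.56 in the light, spread too widely to read, with an SD of 0.85 among dark arrays.

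The 2 E1 alpha genes therefore had differences of opposite sign. AT1G21400 minus AT5G09300 averaged -2.12 ± 0.27 in dark-grown and -1.71 ± 0.17 in light-grown roots (SD, n = 3 each). That within-array difference was lower by 0.41 in the dark (exact permutation test, two-sided, p = 0.1, the smallest possible, and 0.133 adjusted over the 4 pairs), so the design cannot carry it past a threshold of 0.05.

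DIN4, the E1 beta subunit gene, had 13.08, 13.03 and 13.03 in dark-grown roots and 12.80, 13.03 and 12.94 in light-grown roots. The highest light array equalled the lowest dark ones. The difference was 0.12 (SE 0.08, limma adjusted p = 0.495), and its 95% interval, a fold change of 0.942 to 1.26, contains no change of the size seen in BCAT2. BCE2, the E2 acyltransferase subunit gene, had 14.40, 14.34 and 14.37 in dark-grown roots and 14.06, 14.13 and 14.23 in light-grown roots. All dark values were higher, by 0.11 at the closest pair, and the difference of 0.23 (SE 0.08) had a limma adjusted p of 0.162. Its 95% interval was a fold change of 1.03 to 1.34.

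IVD, the flavin-dependent dehydrogenase that oxidises isovaleryl-CoA on the leucine branch, had 11.15, 11.16 and 10.96 in dark-grown roots, against 10.13, 9.55 and 9.24 in light-grown roots. The dark arrays lay close together, the light arrays were more spread, and no values overlapped. The means were 11.09 ± 0.11 in dark-grown and 9.64 ± 0.45 in light-grown roots (SD, n = 3 each). The difference was 1.45 (SE 0.23, limma adjusted p = 0.0259), with a 95% interval of 1.84-fold to 4.07-fold, and IVD ranked 102 of 32627 loci by size of the rise in the dark. Unlike that of BCAT2, this call held in only 2 of the 6 fits that left out 1 array. It was lost without dark replicate 1, 2 or 3 (adjusted p = 0.105, 0.106 and 0.0845) and without light replicate 2 (0.0956). It held without light replicate 1 or 3, and the difference stayed between 1.25 and 1.70 in all 6 fits. With a term for replicate number in the fit, neither BCAT2 nor IVD passed (limma adjusted p = 0.0549 and 0.0536).

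The carboxylase that follows IVD has a biotin-carrying alpha subunit, MCCA, and a beta subunit, MCCB. MCCA had 14.55, 14.60 and 14.50 in dark-grown roots and 14.25, 14.25 and 14.22 in light-grown roots. The groups stood 0.25 apart, more than the spread within either. The difference of 0.31 (SE 0.07, a fold change of 1.24 with a 95% interval of 1.10 to 1.39) had a limma adjusted p of 0.0618 and did not pass. With a variance prior that follows signal and is estimated robustly, the limma adjusted p was 0.0160. With models under the 25th percentile or the median of signal removed it was 0.0269 and 0.0132. In the 6 fits that left out 1 array MCCA passed in 0, with limma adjusted p between 0.127 and 0.210. With a term for replicate number in the fit it was 0.131, so a call of MCCA depends on the setting.

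MCCB had 14.94, 15.07 and 15.05 in dark-grown roots and 14.70, 15.13 and 14.93 in light-grown roots, and light replicate 2 was the highest of all 6. Its difference of 0.10 (SE 0.13) had a limma adjusted p of 0.735. MCCA minus MCCB differed by 0.21 between the groups (exact permutation test, two-sided, p = 0.3 both unadjusted and adjusted over the 4 pairs), so unequal change of the 2 subunit genes was not shown. IVD minus MCCA averaged -3.46 ± 0.07 in dark-grown and -4.60 ± 0.44 in light-grown roots (SD, n = 3 each), 1.14 higher in the dark with no overlap (exact permutation p = 0.1, two-sided, the smallest possible, and 0.133 adjusted). This pair, like the others, was chosen after the values were seen, so the separation is not separate evidence.

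ETFQO, which passes electrons from IVD and other dehydrogenases to ubiquinone, had 14.27, 14.38 and 14.19 in dark-grown roots and 14.35, 14.26 and 14.28 in light-grown roots. The groups overlapped, and the difference of -0.02 (SE 0.08, limma adjusted p = 0.942) had a 95% interval of -0.22 to 0.18.

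**Figure D2:**
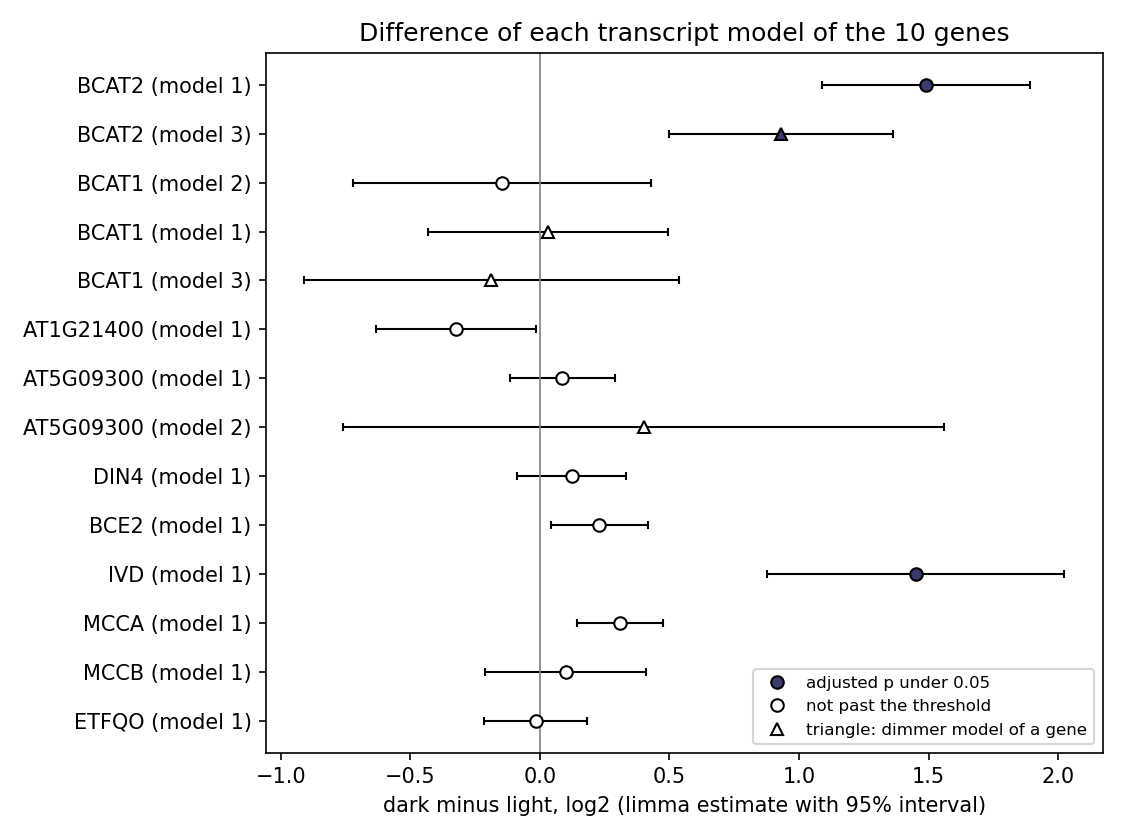
Dark minus light on the log2 scale for the 14 transcript models of the 10 genes, with limma's 95% intervals; filled symbols passed the threshold of 0.05, and triangles are the dimmer models of a gene. Both models of BCAT2 (1.49 and 0.93) and the IVD model (1.45) are filled, and no interval of another gene reaches 1 except that of the dimmer AT5G09300 model.

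The 10 genes sit at very different signal, and the spread of the arrays changes with it. BCAT2 and IVD lie in the fifth of 10 equal classes of loci by mean signal. In that class 6.34% of loci were called higher in dark-grown roots, and 3.13% rose in the dark by more than 1. MCCA, BCE2 and ETFQO lie in the eighth class, where 2.39% were called higher and 0.307% rose in the dark by more than 1. MCCB lies in the ninth, within 0.95 of the highest value in the table (15.92), where the median absolute difference of all loci was 0.12. Large rises in the dark were thus rarer among bright loci on this array, though not absent. How far the small values of MCCA, BCE2, MCCB and ETFQO reflect the scale was not tested.

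**Figure D3:**
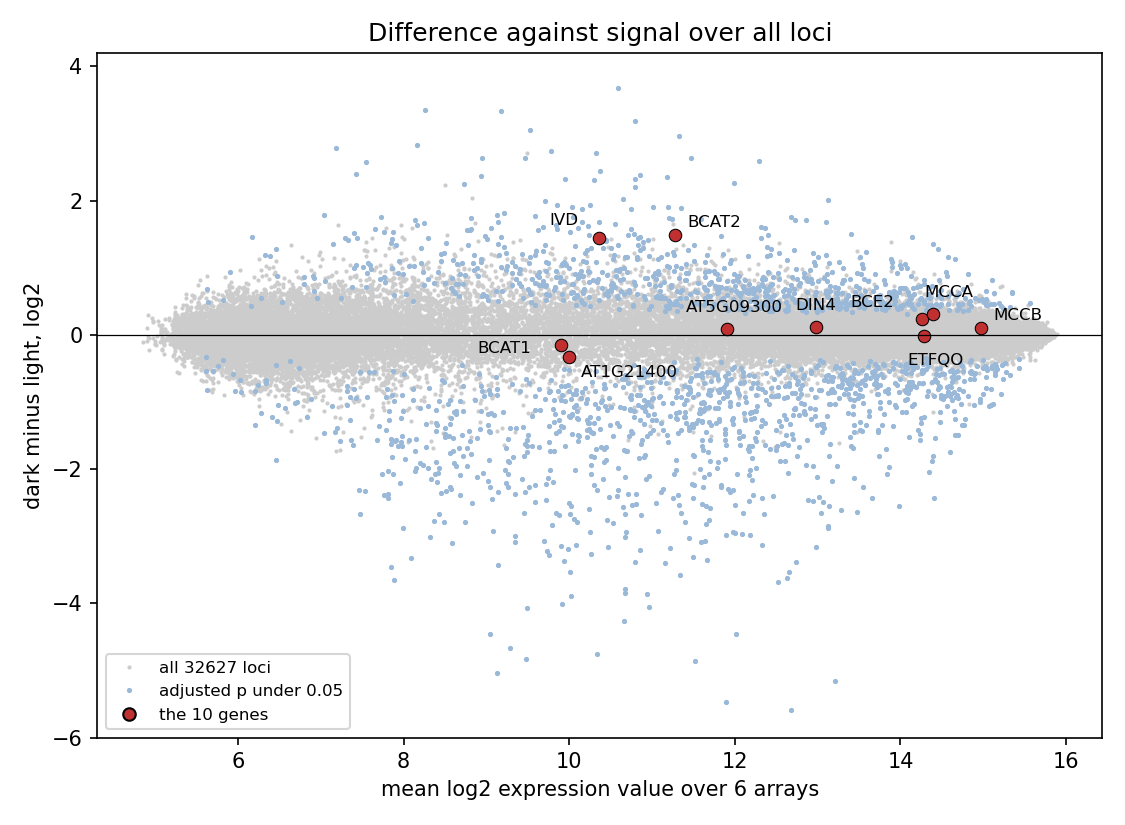
Dark minus light on the log2 scale against the mean log2 expression value over the 6 arrays for all 32627 loci (grey), loci past the threshold (blue) and the 10 genes (red). BCAT2 and IVD lie at middle signal with differences of 1.49 and 1.45, and MCCA, BCE2, ETFQO and MCCB lie where the cloud of all loci narrows towards the top of the scale.

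Among arrays of a group the members did not order alike. Dark replicate 3 was the lowest dark array, ties included, for 7 of the 10 genes, and dark replicate 2 was the highest for 6. Averaged over the 10 genes, dark replicate 3 lay 0.09 below its group's mean and dark replicate 2 lay 0.07 above it. The averages over the 10 genes were 12.62, 12.67 and 12.51 in dark-grown roots and 12.25, 12.33 and 12.23 in light-grown roots. Every dark average was above every light one. Without BCAT2 and IVD the averages over the other 8 genes were 12.86, 12.93 and 12.78 in dark-grown roots and 12.77, 12.89 and 12.79 in light-grown roots, and the groups overlapped. Across all models, light replicate 3 stood apart from light replicates 1 and 2 on the second principal component (45.3 against -37.2 and -34.8). Dark replicate 3 was also the highest of its group there (27.4 against 10.3 and -11.1). Without light replicate 3, BCAT2 differed by 1.58 and IVD by 1.25, and both passed.

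Other enzymes of the same pathway gave no call. A list of 15 further loci for branched-chain breakdown, among them BCDH BETA1 (a further E1 beta gene), the lipoamide dehydrogenases mtLPD1 and mtLPD2, both subunits of the electron transfer flavoprotein, the hydroxyisobutyryl-CoA hydrolase CHY1 and the methylmalonate semialdehyde dehydrogenase ALDH6B2, had 0 loci called by limma in either direction and 1 at an unadjusted p under 0.05. That was ETFBETA, at 13.98 ± 0.10 in dark-grown and 14.22 ± 0.11 in light-grown roots (SD, n = 3 each), a difference of -0.24 (SE 0.09, limma adjusted p = 0.227). The list's median was -0.08, and of its 15 differences 4 were above 0 and 11 below. In the main set 7 of the 10 differences were above 0, against 52.5% over all loci. Over all loci limma called 2.46% higher and 3.27% lower, and 6909 of 32627 had an unadjusted p under 0.05.

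A list of 18 loci held genes of branched-chain synthesis and of methionine chain elongation, which shares its chemistry and feeds glucosinolates. Of these, 2 fell in dark-grown roots, where 3.27% of all loci were called lower, and 0 rose, where 2.46% were called higher. The other 16 did not pass, and the median was -0.14. Both that fell, BCAT4 and IPMI1, are known from methionine chain elongation. BCAT4, an aminotransferase of methionine chain elongation, was at 14.15 in dark-grown and 15.41 in light-grown roots, a difference of -1.26 (SE 0.12, limma adjusted p = 0.00511), and held in all 6 fits without 1 array. The isopropylmalate isomerase small subunit gene IPMI1 differed by -0.91 (SE 0.18, limma adjusted p = 0.0449) and held in 1 of those 6, without light replicate 1. All dark values lay below all light values in 8 of the 18, where 12.0% of all loci showed this, and above them in 0, where 16.2% did. Among the aminotransferase genes named BCAT, BCAT2 was higher and BCAT4 lower in the dark. BCAT1 (-0.15), BCAT3 (-0.18, limma adjusted p = 0.243) and ATBCAT-5 (-0.15, limma adjusted p = 0.355) did not pass, the last 2 named after their values were seen.

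In the breakdown of other amino acids, limma called no locus higher. Of 24 loci 0 rose and 5 fell in dark-grown roots, where 2.46% of all loci were called higher and 3.27% lower. The median was -0.09. At an unadjusted p under 0.05, 1 of the 24 was higher, against 3945 of all 32627 loci. The tyrosine aminotransferase genes TAT7 and TAT3 differed by -1.12 (SE 0.12, limma adjusted p = 0.00744) and -1.81 (SE 0.26, limma adjusted p = 0.0194), and PYD4, an aminotransferase of pyrimidine-derived beta-alanine, by -0.90 (SE 0.12, limma adjusted p = 0.0168). TAT7 held without any 1 array, while TAT3 and PYD4 each held in 1 of the 6 such fits, TAT3 without dark replicate 3 and PYD4 without dark replicate 2. The other two, ERD5 (proline dehydrogenase) and AT1G12050, both named after their values were seen, were lower by smaller amounts, -0.41 and -0.38, and held in 0 of the 6. The count of 5 came to 1 or 2 in each fit without 1 array.

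Peroxisomal fatty acid oxidation and the glyoxylate cycle, another route by which starved plant cells feed respiration, had 0 loci higher and 2 lower of 13 in dark-grown roots (median -0.05, with 0 higher at an unadjusted p under 0.05). Over all loci limma called 2.46% higher and 3.27% lower, and 3945 of 32627 were higher at an unadjusted p under 0.05. KAT5, a 3-ketoacyl-CoA thiolase, was at 10.88 ± 0.17 in dark-grown and 14.42 ± 0.20 in light-grown roots (SD, n = 3 each), 11.6-fold higher in light (difference -3.54, SE 0.14, limma adjusted p = 0.000623). Isocitrate lyase (ICL) differed by -1.62 (SE 0.18, limma adjusted p = 0.00951). Both held in all 6 fits without 1 array. The highest difference in the list was 0.05.

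Markers of darkness and sugar starvation did not move as a block. Of 15 loci outside the main set, 1 rose, where 2.46% of all loci were called higher in dark-grown roots. Of the same 15, 3 fell, where 3.27% of all loci were called lower, and the median was 0.08. SEN1 (also DIN1), a marker of dark-held and senescing leaves, was at 13.29 ± 0.15 in dark-grown and 12.44 ± 0.05 in light-grown roots (SD, n = 3 each), a difference of 0.85 (SE 0.10, limma adjusted p = 0.00959). PHI-1 (also EXL1) and DIN11 differed by -2.22 (SE 0.13, limma adjusted p = 0.00119) and -2.50 (SE 0.20, limma adjusted p = 0.00297). All 3 held in the 6 fits without 1 array. The asparagine synthetase gene ASN1 (also DIN6), chosen after its values were seen, differed by -0.81 (limma adjusted p = 0.0449), and of the 6 fits it held in the 1 without dark replicate 3 (adjusted p = 0.0206).

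The kinase SnRK1 and its bZIP transcription factor partners are known to control branched-chain breakdown genes in starved leaves. Of 12 loci listed, 10 were measured (bZIP1 and GBF6 were not among the models), and limma called 0 in either direction, with 0 at an unadjusted p under 0.05. Their differences ran from -0.14 to 0.07. The member with the lowest p, bZIP44, differed by -0.14 (SE 0.09, limma adjusted p = 0.447). Over all loci limma called 2.46% higher and 3.27% lower, and 6909 of 32627 had an unadjusted p under 0.05. Transcript levels do not measure the activity of this kinase.

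**Figure D4:**
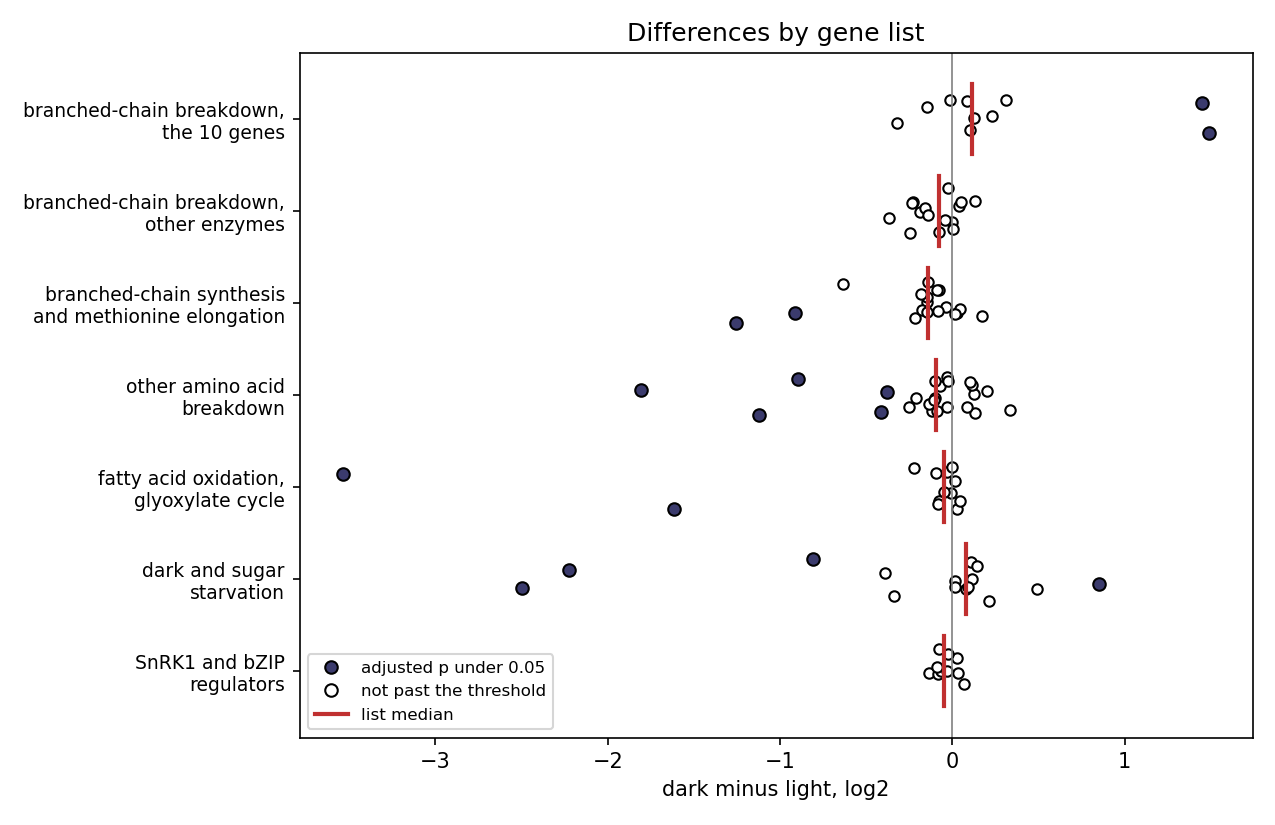
Dark minus light on the log2 scale for every measured locus of 7 gene lists; filled points passed the threshold of 0.05, open points did not, and the red bar is the list median. The 10 branched-chain breakdown genes have a median of 0.11 and 2 filled points right of 0, while the 15 other enzymes of the pathway have none filled and a median of -0.08.

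The loci whose profile over the 6 arrays came closest to BCAT2 and to IVD were not from this pathway's lists. Closeness was the root mean square difference between mean-centred log2 profiles, over 6 arrays. For BCAT2 the 3 nearest were AT1G33813 (0.162), AT1G33817 (0.179) and AT2G05540 (0.187), and for IVD they were AT1G07690 (0.0741), AT5G26070 (0.0892) and AT1G49100 (0.117). All 6 were called higher in dark-grown roots. As they were chosen for likeness to BCAT2 or IVD, themselves called higher, this is not separate evidence. AT2G05540 had 12.55, 12.62 and 12.19 in dark-grown and 10.67, 10.83 and 10.67 in light-grown roots. AT1G07690 had 8.97, 9.09 and 8.98 in dark-grown and 7.98, 7.48 and 7.25 in light-grown roots. In both IVD and AT1G07690, light replicate 1 was the highest light array, which also goes with choosing AT1G07690 by its likeness to IVD. BCAT2 and IVD stood 0.410 from each other, with 291 loci nearer to BCAT2 than IVD was and 595 nearer to IVD than BCAT2 was.

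The tissue label was set against markers of roots and of shoot tissue that a harvest could carry over. Limma called 0 of 14 root markers in either direction, where 2.46% of all loci were called higher and 3.27% lower. At an unadjusted p under 0.05, 3 were higher in the dark, against 3945 of all 32627 loci. Differences above 0 made up 11 of 14, against 52.5% over all loci. All dark values lay above all light values in 5 of the 14, where 16.2% of all loci showed this, and below them in 0, where 12.0% did. The root marker with the lowest p was SCR, a regulator of the root endodermis, at 0.34 (limma adjusted p = 0.0603). The mean level of the root markers was 13.49, 13.49 and 13.63 on the dark arrays and 13.40, 13.43 and 13.44 on the light arrays. Of 10 shoot markers, whose mean level was 8.01 to 8.21 on dark and 7.93 to 8.20 on light arrays, 1 was higher in the dark (STM, 0.84, limma adjusted p = 0.0202) and 1 lower (KNAT1, -1.13, limma adjusted p = 0.0147). STM held in 1 of the 6 fits without 1 array, that without dark replicate 2, and KNAT1 in 3, being lost without dark replicate 1, 2 or 3. Single shoot markers ranged from 6.44 to 12.26 in mean level over the 6 arrays, and the root markers from 9.97 to 15.89. The part of either list in the results above was not tested. The mean of the root markers did not overlap between the groups, and that of the shoot markers did.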

How the data were processed

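RNA from roots was hybridised to 6 arrays, 3 per group. The authors deposited log2 expression values for 37118 transcript models, and the submitters' processing notes name limma without a version. Once sorted, the 6 columns differed by at most 0.01, which describes a quantile-normalized table. How background was corrected and probes were summarised, and the annotation release, is not given in the sources used here. Array number limits the precision. Levels of different genes also depend on their probes, which holds for the signal classes and the marker levels above.

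Dark minus light was fitted to all models using lmFit and eBayes of limma 3.58.1 (R 4.3.3), without covariates and with two-sided tests. Benjamini-Hochberg adjustment ran over all models, and the threshold was 0.05. The script was tested on simulated data. Figures used Python 3.11.15 and matplotlib 3.10.9. Names came from the RefSeq table of TAIR10.1, which held 31993 of the 32627 loci. The 10 genes and all lists were chosen with earlier results of these data known, and the 4 gene pairs after the data were seen. Named were all 10 genes, in each other list up to 3 loci past the threshold by lowest p (or the 1 with the lowest p), and the 3 closest profiles. Exceptions are said in the text, or only place a list. Alternatives were a replicate block, leaving out each array, another variance prior, scaling, filters on low signal, array weights, averaging models and a threshold of 0.01. Same-numbered arrays were not treated as pairs. Promoter sequences were not analysed here.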

Additional observations from a re-analysis of the deposited data

How the results depend on the processing

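Normalizing quantiles again and centring on array medians returned the original values, so those settings could move no result. The threshold of 0.01 reused the original fit and could change only the side of the threshold. All of these are included in the counts that follow. Of 196 recomputed differences of the 10 genes, 170 kept their direction and side of the threshold, 15 no longer passed, 3 newly passed and 8 changed sign. All 8 came from leaving out 1 array, and none passed with either sign. In those fits BCAT1 ranged between -0.348 and 0.0467, its model 1 between -0.10 and 0.17, its model 3 between -0.508 and 0.0717, MCCB between -0.01 and 0.205, AT5G09300 model 2 between -0.0917 and 0.683, and ETFQO between -0.0667 and 0.0283. The number of the 10 genes called higher in dark-grown roots was 2. It was 0 with a replicate block (adjusted p = 0.0549 for BCAT2 and 0.0536 for IVD), between 1 and 2 without 1 array, 1 without models under the median signal, where BCAT2 and IVD are removed and MCCA passes, and 1 at a threshold of 0.01. The count was 3, with MCCA added, under a trended and robust variance prior and without models under the 25th percentile of signal. None was lower in any setting. Whether same-numbered arrays belong together is not given by the labels. Their deviations from the group means correlated at 0.01 and 0.06 for replicates 1 and 2, and at 0.41 for replicate 3. Among pairs with unlike numbers, only dark replicate 2 with light replicate 1 was computed, at 0.36. Whether the arrays of replicate 3 share a batch was not tested. Over all models, 903 were higher in dark-grown roots. There were 290 with the replicate block, 158 to 473 without 1 array, 1879 with the trended and robust prior, 1627 without models under the 25th percentile of signal, 1596 without those under the median, and 115 at 0.01. Lower were 1196 models, against 668 with the replicate block, 607 to 905 without 1 array, 1852 with that prior and 491 at 0.01. Averaging models gives no count of models. For the other lists, 200 of 240 recomputed counts stayed within 1.5 times. Many of those were 0 both in the original fit and in the alternative, which counts as unchanged. Where counts moved, the cause was not tested. With 3 arrays per group and no detection calls, small differences at high or low signal are poorly resolved.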
